A study of Homo sapiens with 6 samples.

Results

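The genes described here are the 4 inhibitor of DNA binding genes ID1, ID2, ID3 and ID4 together with SMAD6, SMAD7, DLX1 and DLX2, all known as transcriptional targets of bone morphogenetic protein (BMP) signaling through SMAD proteins. They are 8 of the 19211 genes named in the mRNA-seq table and carry 13 of its 38438 transcripts, found by their gene names. The 8 genes were chosen by their values in growing and PP242-treated cells, the same contrast that is described below, so their changes are given as values without a test. All 13 transcripts reached a mean of 1 RPKM (reads per kilobase of transcript per 1e6 mapped reads), as did 21014 transcripts in all.

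BMP ligands bind paired serine/threonine kinase receptors, which phosphorylate SMAD1, SMAD5 and SMAD9, and these enter the nucleus with SMAD4 and bind DNA at GC-rich and CAGAC-type sequences. ID proteins hold a helix-loop-helix domain but no DNA-binding region, and they pair with the E proteins TCF3, TCF4 and TCF12 and so keep them from forming active dimers with tissue-specific bHLH factors. SMAD6 and SMAD7 are inhibitory SMADs that act back on the receptors and on the receptor-activated SMADs. DLX1 and DLX2 are homeodomain transcription factors of neural and craniofacial development.

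The cells were HEK293T, derived from human embryonic kidney and carrying the large T antigen of SV40. For mRNA-seq, 2 biological replicates were grown in DMEM with serum (growing) and 2 in the same medium with 2.5 µM PP242, an ATP-competitive inhibitor of the mTOR kinase (PP242). The duration of PP242 treatment is not given in the sources used here, no 4-thiouridine was added to these cells, and the 4 strand-specific libraries carry the same flow cell label. LARP1 PAR-CLIP, the sequencing of RNA fragments crosslinked to the RNA-binding protein LARP1, was done with 1 library from growing cells and 1 from PP242-treated cells, both labeled with 4-thiouridine.

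The libraries held an estimated 33.1 to 35.0 × 1e6 mapped reads, from the RPKM that a single read is worth in genes with 1 transcript. Of 7 markers of the HEK293T line, 6 reached 1 RPKM, with a summed level of 311 to 343 RPKM, and the seventh, PAX2, lay below. Markers of lymphocytes summed to 0.53 to 0.6 RPKM, those of hepatocytes to 0.02 to 0.07 RPKM, those of endothelium to 0.04 to 0.08 RPKM and those of fibroblasts to 1.94 to 2.05 RPKM. In a bulk library a change in every cell and a change in a share of the cells cannot be told apart.

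The authors divided reads that matched several transcripts evenly among them, which can be seen in the table. In growing replicate 1, values near 1 read made up 61.3% of the lowest values in genes with 1 transcript, whereas values near 0.5 reads made up 38.0% in genes with 2 transcripts. The isoforms of a gene therefore share reads and do not count as separate evidence. Levels of different genes were compared on the RPKM summed over the transcripts of each gene, including 1 transcript of SMAD6 and 1 of SMAD7 that the table lists by accession only. The plot of levels shows these sums in every library.

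**Figure D1:**
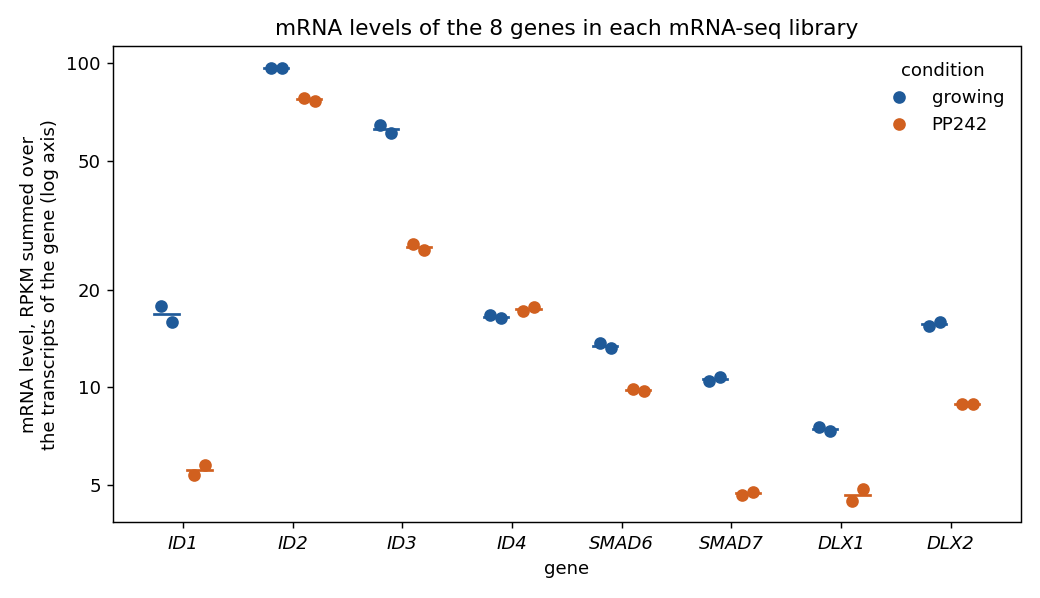
mRNA level of each gene as RPKM summed over its transcripts (log axis), with 1 point per mRNA-seq library and a line at the mean of the 2 libraries of a condition. The growing (blue) and PP242 (orange) libraries do not overlap for any of the 8 genes, and PP242 lies above growing for ID4 alone.

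ID1 lies on chromosome 20 (chr20:30193086-30194318, GRCh37, plus strand). Its summed level was 17.87 and 15.84 RPKM in the growing libraries and 5.35 and 5.77 RPKM in the PP242 libraries. Both PP242 libraries lay far below both growing libraries, and their mean was 0.330 of the growing mean. The values rest on about 581 and 546 reads in growing cells and about 180 and 198 reads after PP242, so counting error is small beside the difference.

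Its transcripts NM_181353.2 and NM_002165.3 had log2 changes of -1.32 and -1.31 on the log2(RPKM + 1) scale, with standard errors of 0.058 and 0.061. On this scale these were the 2 largest decreases among the 21014 transcripts, and the 2 share reads. In RPKM itself DUSP2 fell to a smaller part of its growing level than ID1, from 1.97 and 2.26 to 0.60 and 0.50 RPKM. Leaving out each library in turn moved the change of NM_181353.2 between -1.40 and -1.24.

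ID3 lies on chromosome 1 (chr1:23884417-23885992, GRCh37, minus strand) and is listed with 1 transcript, NM_002167.4. Its level was 64.41 and 60.68 RPKM in growing cells and 27.66 and 26.48 RPKM after PP242. The PP242 mean was 0.433 of the growing mean, and the conditions did not overlap. The log2 change was -1.18 with a standard error of 0.038, the third largest decrease of all transcripts on the log2(RPKM + 1) scale. The pseudocount of 1 shrinks the change of ID1 more than that of ID3. Without it, the log2 ratio of the mean summed RPKM was -1.60 for ID1 and -1.21 for ID3. ID3 was the more abundant of the pair in every library.

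ID2 (chr2:8818975-8824591, GRCh37, plus strand) is the most abundant ID gene in these cells. The transcript NM_002166.4 had 96.86 and 96.37 RPKM in growing cells and 77.90 and 76.66 RPKM after PP242. The conditions were separate here too, but the PP242 mean was 0.800 of the growing mean, a smaller change than in ID1 and ID3. The log2 change was -0.32 with a standard error of 0.022, and 344 of the 21014 transcripts had a larger decrease. A gene on the opposite strand, ID2-AS1, overlaps ID2, and the libraries are strand-specific.

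ID4 (chr6:19837601-19842428, GRCh37, plus strand) differed in direction from the other 7 genes. The transcript NM_001546.3 had 16.67 and 16.33 RPKM in growing cells and 17.14 and 17.63 RPKM after PP242. Both PP242 libraries were slightly above both growing libraries, at 1.05 times the growing mean. The log2 change was 0.07 with a standard error of 0.029, and it lay between 0.05 and 0.09 when each library was left out in turn.

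The make-up of the ID family therefore differed between the conditions. The 4 genes summed to 195.8 and 189.2 RPKM in growing cells and to 128.0 and 126.5 RPKM after PP242. ID1 made up 9.1% and 8.4% of this sum in growing cells and 4.2% and 4.6% after PP242. The share of ID3 was 32.9% and 32.1% in growing cells and 21.6% and 20.9% after PP242, so both genes held a smaller part of a smaller sum.

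The share of ID2 was 49.5% and 50.9% in growing cells and 60.8% and 60.6% after PP242. The share of ID4 was 8.5% and 8.6% in growing cells and 13.4% and 13.9% after PP242, while its own level differed little. ID1 and ID4 had overlapping levels in growing cells, and after PP242 every ID4 value was above every ID1 value.

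**Figure D2:**
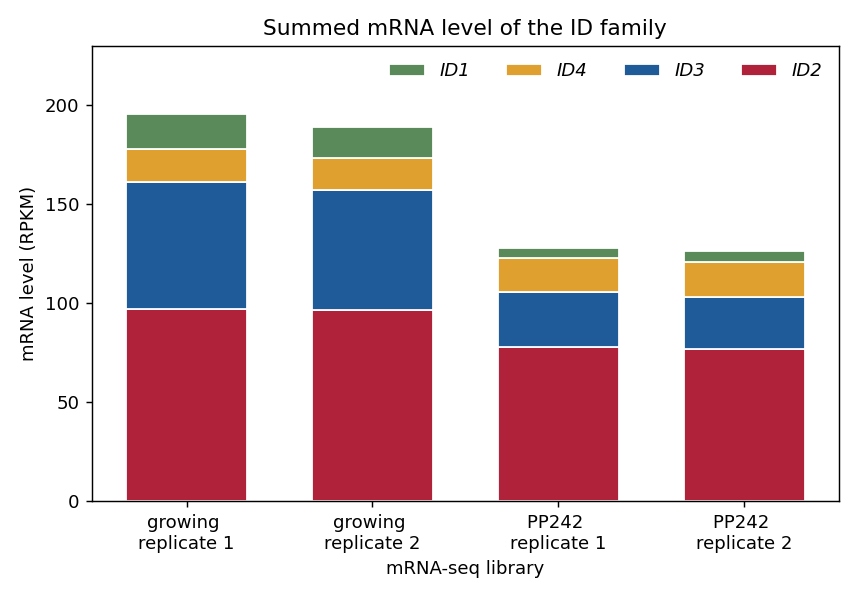
Level of the 4 ID genes in each mRNA-seq library, as stacked RPKM from 0. The sum is 195.8 and 189.2 RPKM in the growing libraries and 128.0 and 126.5 RPKM in the PP242 libraries, and the bands of ID3 and ID1 are narrower after PP242, whereas the band of ID4 is slightly wider.

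Both inhibitory SMADs were lower after PP242, SMAD7 by more than SMAD6. SMAD7 (chr18:46446223-46477335, GRCh37, minus strand) summed to 10.46 and 10.73 RPKM in growing cells and to 4.66 and 4.76 RPKM after PP242, a mean of 0.444 of the growing mean. Each of its 4 transcripts, which share reads, was at 0.435 to 0.453 of its growing mean.

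Because each SMAD7 transcript holds only part of these reads, the pseudocount of 1 shrinks its log2 change more than that of a single-transcript gene. The log2 changes of the transcripts named in the table were -0.77, -0.74 and -0.73, while that of the summed RPKM was -1.02 with a standard error of 0.041. In the fit on summed values SMAD7 had rank 4 of 12376 genes in order from the largest decrease, where ID1 had rank 1 with a log2 change of -1.44 and ID3 rank 2 with -1.18.

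SMAD6 (chr15:66994574-67075187, GRCh37, plus strand) summed to 13.74 and 13.17 RPKM in growing cells and to 9.89 and 9.74 RPKM after PP242. The PP242 mean was 0.730 of the growing mean, and the libraries of the conditions were separate. The log2 change of the summed RPKM was -0.42 with a standard error of 0.039. SMAD6 was higher than SMAD7 in all 4 libraries.

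DLX1 and DLX2 are neighbors on chromosome 2 with 9760 bp between them, on opposite strands, and both were lower after PP242. DLX2 (chr2:172964166-172967628, GRCh37, minus strand) had 15.49 and 15.92 RPKM in growing cells and 8.90 and 8.85 RPKM after PP242. DLX1 (chr2:172949468-172954405, GRCh37, plus strand) summed to 7.53 and 7.34 RPKM in growing cells and to 4.47 and 4.84 RPKM after PP242. The ratio of the PP242 mean to the growing mean was 0.565 for DLX2 and 0.626 for DLX1.

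The log2 change of DLX2 was -0.76 with a standard error of 0.030. The log2 change of the summed DLX1 was -0.58 with a standard error of 0.049. DLX2 was the more abundant of the pair in every library.

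In growing cells the order of summed levels was ID2, ID3, ID1, ID4, DLX2, SMAD6, SMAD7 and DLX1, where only ID1 and ID4 overlapped with their neighbor. After PP242 the order was ID2, ID3, ID4, SMAD6, DLX2, ID1, SMAD7 and DLX1, where only SMAD7 and DLX1 overlapped. ID1 thus went from the third to the sixth place.

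Of the 13 transcripts, 12 had both PP242 values below both growing values, and the transcript of ID4 had both above. Over all 21014 transcripts, 30.0% had both PP242 values below both growing values and 28.5% had both above. Nothing is read from this difference, because the genes were chosen by these values. The median log2 change was -0.73 over the 13 transcripts and 0.00 over all transcripts, as the plot of change against level shows.

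**Figure D3:**
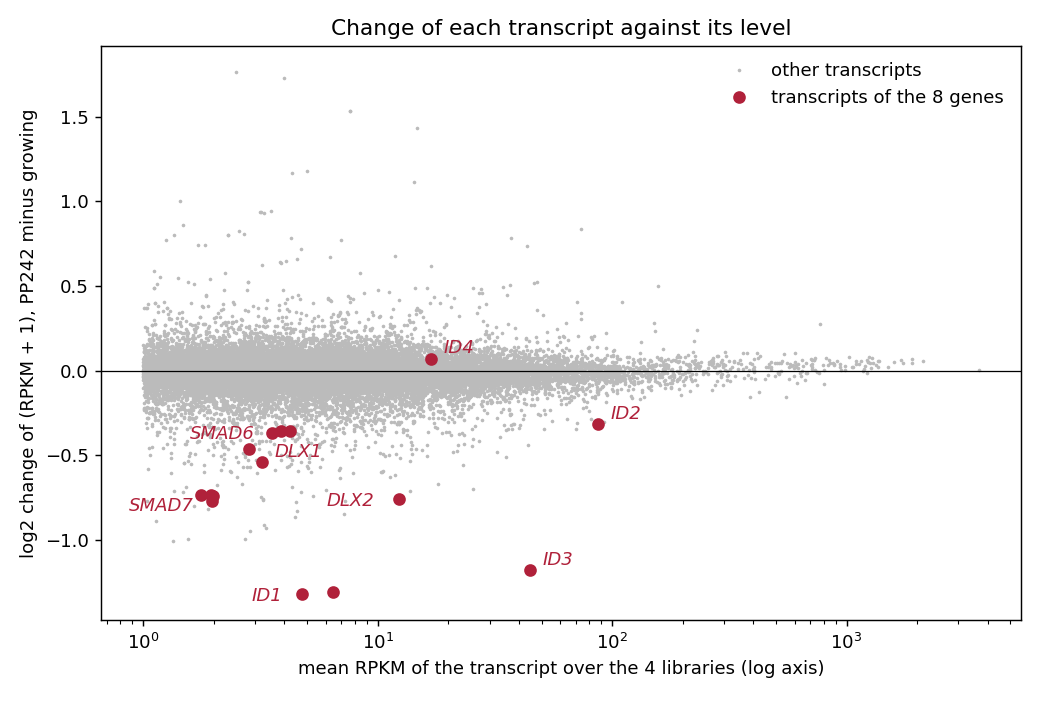
Log2 change of (RPKM + 1), PP242 minus growing, of each of 21014 transcripts against its mean RPKM (log axis), with the transcripts of the 8 genes, 2 of them listed by accession only, in red. The ID1 and ID3 transcripts are the lowest points of the plot, the points of SMAD7, DLX2, DLX1, SMAD6 and ID2 lie between -0.77 and -0.32, and ID4 lies at 0.07.

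The other genes of the pathway were described by 10 lists with 148 genes, and 76 of these had a transcript of at least 1 RPKM. Each gene was represented by its most abundant transcript. The RPKM of these genes below is that of this transcript, unless a sum is named. Where a gene has several transcripts, it is only part of the level of the gene. Of the 76 genes, 18 were lower and 2 higher after PP242 at an adjusted p under 0.05 from limma. Among all 11693 genes tested in this way, 8.3% were lower and 3.94% were higher. At an unadjusted p under 0.05 from limma, 26 of the 76 were lower and 7 higher. Among all 11693 genes, 2193 were lower and 1518 higher at that threshold, which is the background for the unadjusted counts below. Of the 20 calls, 10 were lost in at least 1 of the 4 fits that left out a library, and for these genes the highest adjusted p of the 4 fits is given below. The number lower was 9 to 15 when each library was left out in turn, and lowest without growing replicate 1.

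Other known BMP-SMAD targets held more calls than any other of the lists in number, but not as a share of the genes tested. Of the 3 other DLX genes tested, 2 were lower. The lists were chosen with earlier results of these data known. Of 12 other BMP-SMAD targets tested, 7 were lower and 0 higher by limma (8 and 3 at an unadjusted p under 0.05). Their median log2 change was -0.30, against -0.01 over all genes tested. The counts of this list were 7 lower and 1 higher with a replicate block, 3 lower and 1 higher with a filter of 5 RPKM, and 2 lower and 0 higher without a filter. BAMBI, a decoy receptor that lacks the kinase domain, had 10.07 and 9.06 RPKM in growing cells and 4.84 and 4.90 RPKM after PP242. It fell by 0.85 on the log2 scale (adjusted p = 0.00106 from limma), the seventh largest fall of all genes tested.

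MSX2, a homeobox repressor of limb and skull development, had 16.07 and 15.54 RPKM in growing cells and 9.15 and 8.79 RPKM after PP242. It fell by 0.75 (adjusted p = 0.000572 from limma). The most abundant of the 3 transcripts of the zinc finger factor GATA2 had 4.49 and 4.18 RPKM in growing cells and 2.12 and 2.19 RPKM after PP242. It fell by 0.76 (adjusted p = 0.000968 from limma), and that of the related factor GATA3 fell by 0.57 (adjusted p = 0.00432 from limma). Summed over its 3 transcripts, GATA2 had 13.38 and 12.45 RPKM in growing cells and 6.30 and 6.53 RPKM after PP242, a log2 change of -0.91.

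The other calls in this list were the BMP antagonist NOG, DLX5 and MSX1, with log2 changes of -0.44, -0.34 and -0.26. The call of NOG was lost without growing replicate 1 (adjusted p = 0.0588 from limma). That of MSX1 was lost without growing replicate 1 and without either PP242 library (highest adjusted p = 0.0653 from limma). Not every known target was lower. HEY1, a Notch and BMP target, had 36.96 and 37.68 RPKM in growing cells and 39.10 and 39.48 RPKM after PP242 (adjusted p = 0.127 from limma). HES1 had a log2 change of 0.14 and JUNB of -0.12, neither past the threshold.

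Of the other DLX genes, which encode homeodomain factors of the same family, 3 were tested and 2 were lower. DLX6 had 2.68 and 2.90 RPKM in growing cells and 1.62 and 1.42 RPKM after PP242, a fall of 0.59 (adjusted p = 0.00353 from limma). DLX5, which lies in both lists, fell by 0.34 (adjusted p = 0.011 from limma). DLX4 had a log2 change of -0.14 and did not pass.

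The ligands and receptors showed few calls. Of 5 BMP ligands tested, BMP8B was lower with a log2 change of -0.23 (adjusted p = 0.049 from limma). Its call was lost without growing replicate 1 and without either PP242 library (highest adjusted p = 0.146 from limma). BMP7, the most abundant of them, had 10.33 and 10.55 RPKM in growing cells and 10.36 and 10.77 RPKM after PP242. Of 7 BMP receptors and co-receptors, the co-receptors RGMA and RGMB were lower, with log2 changes of -0.26 and -0.24, and the type I receptor BMPR1A was higher, with 0.15. The call of BMPR1A was lost without any of the 4 libraries (highest adjusted p = 0.102 from limma). That of RGMA was lost without either growing library or PP242 replicate 1 (highest adjusted p = 0.0586 from limma), and that of RGMB without growing replicate 1 or PP242 replicate 2 (highest adjusted p = 0.0842 from limma).

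The type II receptor BMPR2 had 5.85 and 6.18 RPKM in growing cells and 5.87 and 6.46 RPKM after PP242. Of 8 TGF-beta and activin ligands and receptors, 0 were called by limma, and 1 was lower and 0 higher at an unadjusted p under 0.05. TGFB1, whose transcript was the most abundant of the list, had a log2 change of -0.11 (adjusted p = 0.0811 from limma).

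The receptor-activated SMADs and SMAD4, which carry the signal to the nucleus, gave 0 calls by limma among 6 genes, with 1 lower and 1 higher at an unadjusted p under 0.05. SMAD5, the most abundant, had 6.07 and 6.33 RPKM in growing cells and 5.66 and 5.97 RPKM after PP242. SMAD1 had a log2 change of -0.15 (adjusted p = 0.124 from limma) and SMAD4 of -0.04. These are mRNA levels, and the phosphorylation of SMAD proteins was not measured.

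Of 7 extracellular and membrane antagonists, BAMBI and NOG were the 2 that were lower. Of 17 intracellular regulators of SMADs, 2 were lower and 0 higher by limma (5 and 0 at an unadjusted p under 0.05), with a median log2 change of -0.01. TOB1, an antiproliferative protein that binds SMADs, had a log2 change of -0.26 and the corepressor SKIL of -0.22, and both calls passed with all 4 libraries. The call of SKIL was lost without any of them (highest adjusted p = 0.108 from limma) and that of TOB1 without either growing library or PP242 replicate 1 (highest adjusted p = 0.114 from limma). FKBP1A, the most abundant of the list, which holds type I receptors inactive, had 80.43 and 77.15 RPKM in growing cells and 78.72 and 77.10 RPKM after PP242.

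Targets of TGF-beta through SMAD2 and SMAD3 were mixed in direction. Of 10 tested, 3 were lower and 1 was higher, with a median log2 change of -0.12. The cell cycle inhibitor CDKN1A had 3.77 and 3.73 RPKM in growing cells and 2.39 and 2.18 RPKM after PP242, and it fell by 0.53 (adjusted p = 0.00263 from limma). CYR61, a matrix-associated signaling protein, fell by 0.41 (adjusted p = 0.0305 from limma). Its call was lost without either growing library (highest adjusted p = 0.108 from limma). SKIL, which lies in both lists, was the other gene that was lower.

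SNAI2, a zinc finger repressor, went the other way. It had 9.74 and 10.33 RPKM in growing cells and 12.89 and 13.48 RPKM after PP242, with a log2 change of 0.36 (adjusted p = 0.00617 from limma).

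The bHLH proteins with which ID proteins pair were followed as well. TCF3, the most abundant E protein gene of the list, had 16.15 and 15.69 RPKM in growing cells and 15.62 and 16.07 RPKM after PP242, and the conditions overlapped. Of 6 genes tested, 3 were lower and 0 higher by limma, also at an unadjusted p under 0.05, and the 3 are tissue-specific factors. OLIG2 fell by 0.49 (adjusted p = 0.00231 from limma), HAND1 by 0.38 (adjusted p = 0.00547 from limma) and TWIST1 by 0.23 (adjusted p = 0.0261 from limma). The call of TWIST1 was lost without either growing library or PP242 replicate 1 (highest adjusted p = 0.0971 from limma).

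**Figure D4:**
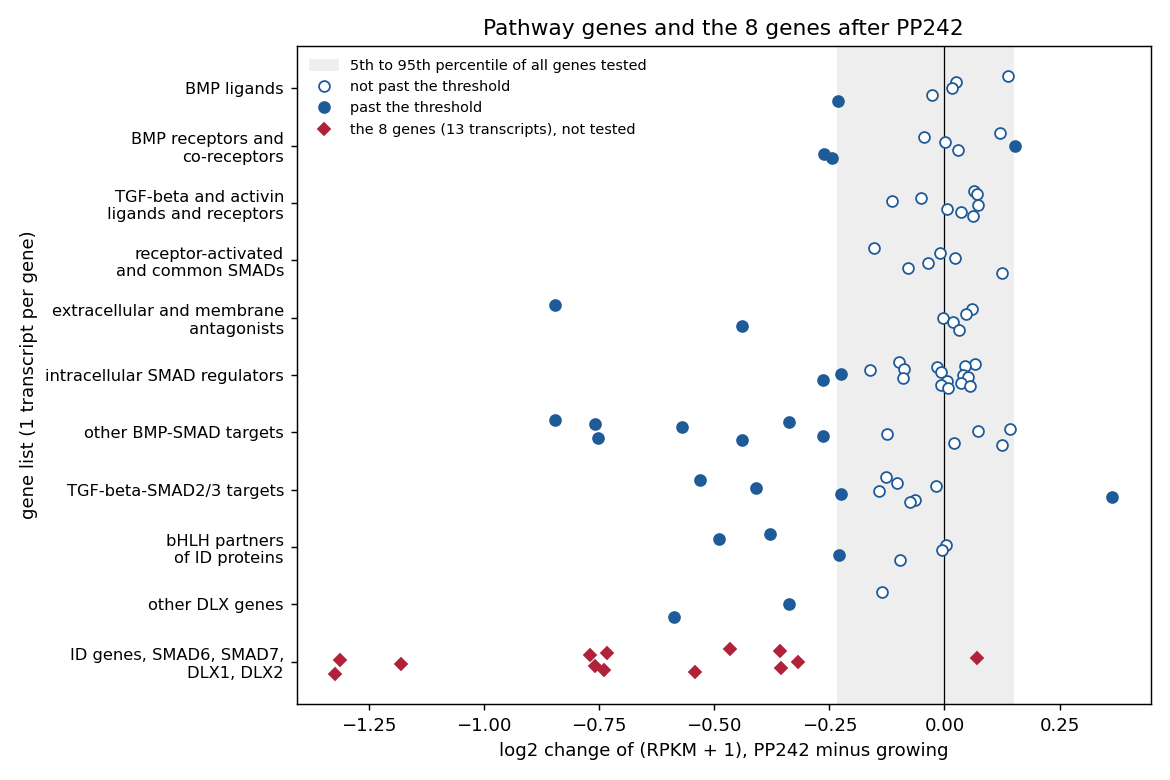
Log2 change of (RPKM + 1), PP242 minus growing, of the genes in 10 pathway lists (circles, filled where past the threshold of adjusted p = 0.05 from limma) and of the 13 transcripts of the 8 genes (red diamonds, not tested). The gray band spans the 5th to 95th percentile of all genes tested, -0.23 to 0.15, and 7 of 12 other BMP-SMAD targets are filled points left of 0, whereas the receptor-activated SMADs and the TGF-beta ligands and receptors have no filled point.

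Genes with many isoforms could miss the level of 1 RPKM because their reads are divided. When RPKM was summed over transcripts, 82 genes of the lists were tested and 19 were lower and 2 higher. Of the 6 genes that entered only in this way, BMP4 and PMEPA1 were lower. BMP4 had summed levels of 3.51 and 3.02 RPKM in growing cells and 2.52 and 2.35 RPKM after PP242 (adjusted p = 0.0253 from limma). PMEPA1, a TGF-beta-induced inhibitor of the pathway, had 2.17 and 1.92 RPKM in growing cells and 1.32 and 1.28 RPKM after PP242 (adjusted p = 0.00858 from limma).

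The genes next to the 8 genes on the chromosome were looked at after the values had been seen. Of 14 such genes 12 were tested, and by limma 1 was lower and 0 higher (1 and 2 at an unadjusted p under 0.05). E2F2, a cell cycle transcription factor 26691 bp from ID3, had a log2 change of -0.40 (adjusted p = 0.00451 from limma). METAP1D, 2309 bp from DLX1, had a log2 change of 0.14 (adjusted p = 0.0736 from limma). HM13, next to ID1, had a log2 change of -0.01 and KIDINS220, next to ID2, of -0.01.

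Outside the 8 genes, which were left out of this search, the genes nearest to each ID gene over the 4 libraries were found. The measure was the Euclidean distance between centered log2(RPKM + 1) values. The values were not scaled, so with 2 libraries per condition this distance mostly follows the size of the change after PP242. The genes nearest to ID1 and ID3 are therefore other genes with large falls. For ID1 the nearest of these other genes were DUSP2, SERTAD3 and BAMBI, at distances of 0.392, 0.399 and 0.470. For ID3 they were DUSP2, SERTAD3 and RGS16, at 0.233, 0.246 and 0.326. DUSP2, a phosphatase of MAP kinases, had 1.97 and 2.26 RPKM in growing cells and 0.60 and 0.50 RPKM after PP242. SERTAD3 had 4.86 and 4.56 RPKM in growing cells and 2.05 and 1.93 RPKM after PP242. For ID2 the nearest genes were OSTM1, MAT2A and KLHL26, and for ID4 they were EIF2B3, CERS6-AS1 and GTF2H1, all within 0.026.

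Sequences known to be bound by SMADs were searched upstream of the 8 genes, since these are known as targets of BMP signaling through SMADs. GGCGCC, which is its own reverse complement and is known from BMP-responsive elements, and CAGAC or its reverse complement GTCTG were counted on both strands. In the 250 bases before the start sites in RefSeq (GRCh38.p14), GGCGCC was found in 0 of the 8 genes, beside 16.4% of 35116 promoter windows and 31.1% of the 16148 windows with a GC content of 60% or more. The windows of the 8 genes other than those of SMAD7 had a GC content of 62.0% to 78.8%. CAGAC or GTCTG was found in ID3, ID4, SMAD7, DLX1 and DLX2, beside 38.0% of all windows and 35.7% of those with a GC content of 60% or more.

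A longer window of 2000 bases before the main start site, chosen after these values were seen, held GGCGCC in 7 of the 8 genes and in 46.7% of 18922 genes (GRCh37). ID3 was the gene without it. A CAGAC or GTCTG lay within 20 bases of a GGCGCC in ID2 and DLX1, beside 4.4% of all genes. Shares for GC-rich windows of this length were not computed, so neither count is read as an excess. Both places lie before the main start site and inside the annotated span of the gene. These stretches are shown in the direction of the gene, with the motifs in capitals, to show the letters around the match in 3 ID genes and in DLX1.
ID1, GRCh37, chr20:30192097-30192162, plus strand, GGCGCC 965 bases before the start: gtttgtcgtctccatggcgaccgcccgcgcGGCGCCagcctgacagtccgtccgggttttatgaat
ID2, GRCh37, chr2:8821748-8821813, plus strand, 408 bases before the start: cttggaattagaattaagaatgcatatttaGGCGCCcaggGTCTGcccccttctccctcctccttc
DLX1, GRCh37, chr2:172949715-172949780, plus strand, 490 bases before the start: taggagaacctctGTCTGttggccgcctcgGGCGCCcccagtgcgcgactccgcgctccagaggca
ID4, GRCh37, chr6:19837063-19837128, plus strand, 508 bases before the start: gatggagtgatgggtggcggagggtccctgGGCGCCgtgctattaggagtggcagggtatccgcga

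The palindrome GTCTAGAC, known as a SMAD-binding element, was found before the start of SMAD6 and SMAD7 only among the 8 genes, beside 1.2% of 18922 genes. In SMAD6 it lay 12 bases before the start and in SMAD7 1260 bases before it. This palindrome was not among the motifs of the first search above. It was searched in the longer window, which was chosen after the values of that search were seen. Its presence in SMAD6 and SMAD7 is therefore not read as an excess either. The matches are shown because the 2 inhibitory SMADs share them.
SMAD6, GRCh37, chr15:66994532-66994573, plus strand: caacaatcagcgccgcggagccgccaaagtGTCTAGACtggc
SMAD7, GRCh37, chr18:46478558-46478625, minus strand: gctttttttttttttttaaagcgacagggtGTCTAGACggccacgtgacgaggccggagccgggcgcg

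A match is a run of letters and no measurement of binding. In the 3’UTRs, AUUUA, a motif known from short-lived mRNAs, occurred 1.94 times per kilobase in ID3 and 2.40 times in ID1, and 2.00 times in ID4. The highest densities among the 8 genes were 4.57 in SMAD6 and 3.83 in ID2, and the median of 18574 mRNAs was 1.56.

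LARP1 binding was a readout that had no part in choosing the genes. In growing cells 0 of the 8 genes had a listed LARP1 site. After PP242 the only listed site was in the 5’UTR of ID3, at nucleotides 106 to 119 of NM_002167.4, with 0.0004 RPM (reads per 1e6 mapped reads). That is far less than 1 read at the depth of a usual library, so no gain of binding is read from it. Among all 11693 genes tested, 10.2% had a listed site in growing cells and 11.2% after PP242. Sites of at least 1 RPM were on 1.8% and 3.9% of all genes and on 0 of the 8 genes in either condition. The lists hold only sites that passed the filters of the authors, so a gene without a site is not shown to be unbound, and with 1 library per condition no difference was tested.

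Among the 76 pathway genes tested, 10 had a listed site in growing cells and 15 after PP242. The strongest was in the coding sequence of TCF3, the E protein gene, at nucleotides 1940 to 1964 of NM_003200.3, with 483 RPM after PP242 and no listed value in growing cells. PPM1A, a phosphatase that acts on SMADs, had 3’UTR sites of 32.4 and 5.92 RPM after PP242. CDKN1A had a 3’UTR site of 18.6 RPM in growing cells that was not listed after PP242.

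The CDKN1A site had a T-to-C score of 0.114 and the PPM1A sites had scores of 0.625 and 0.02, beside 13671 for the site on TCF3, and such a conversion is the mark of crosslinked 4-thiouridine in PAR-CLIP. Other sites of at least 1 RPM after PP242 were in ACVR2B with 1.73 RPM, in CRIM1 with 1.08 RPM and in INHA with 3.61 RPM. INHA, which was not among the tested genes, had 0.0011 RPM at the same place in growing cells.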

How the data were processed

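Gene lists and the 8 genes were chosen with earlier results of these data known. The authors mapped mRNA-seq reads to the GRCh37 transcriptome with Bowtie, kept perfect matches, divided reads matching several places and deposited RPKM per transcript and library. Of 39711 lines, 1273 repeated ones were dropped, and 2860 of 5989 unnamed transcripts were named by accession. For PAR-CLIP the authors deposited site lists with RPM, the ratio of RPM to RPKM, which was not used here, and a T-to-C score that the methods do not define. The libraries' depth was estimated from the RPKM of 1 read, and RPKM gives no counting intervals.

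Differences were fitted with limma 3.58.1 (R 4.3.3, lmFit and trended eBayes). Transcripts entered at a mean RPKM of 1 or more over the 4 libraries, the scale was log2(RPKM + 1), and Benjamini-Hochberg adjustment covered all transcripts, with calls at an adjusted p under 0.05. The pseudocount of 1 understates the changes of low genes. With 2 against 2 libraries a two-sided exact permutation test cannot go below p = 0.333, so none was run. On simulated data for 21014 transcripts, 100 of 100 changes of 0.5 and 100 of 100 of 1 (log2) were called, with 8 unchanged transcripts. The simulated noise was normal, with the same spread for transcripts of like level, whereas real transcripts of like level differ in spread. The simulation therefore checks the code and does not give the power or the false calls in the real libraries.

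Named genes are the 8, up to 4 called genes per list with the largest change, or the most abundant gene where none was called, the 3 nearest patterns of each ID gene among genes other than the 8, and pathway genes with a LARP1 site of at least 1 RPM. Other genes were named after their values were seen. Alternatives were other pseudocounts, filters, scalings, a replicate block, leaving out each library and summed RPKM. Positions are from GENCODE, and promoters from RefSeq. Python 3.11.15, numpy 2.4.6, pandas 2.3.3 and matplotlib 3.10.9 were used. Protein sequences were not analysed here.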

Additional observations from a re-analysis of the deposited data

How the results depend on the processing

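No log2 change of the 13 transcripts or of the called pathway genes changed sign under any alternative. The conditions did not overlap in any of them, so leaving out a library or changing the pseudocount could not change a sign. Over the 13 transcripts of the 8 genes, 109 of 143 alternative values moved by less than the spread between replicates and 34 by more. Their median log2 change of -0.73 was -0.82 with a pseudocount of 0.1, -0.31 with a pseudocount of 5 and -0.67 with RPKM summed per gene, and -0.75 to -0.71 without each library. Over all transcripts 731 were higher and 1356 lower. Without a filter on RPKM 57 were higher and 63 lower, and the pathway lists then had 0 higher and 2 lower genes. With a filter of 5 RPKM, under which fewer genes were tested, 4 pathway genes were lower and 3 higher. Without each library 310 to 348 transcripts were higher and 553 to 741 lower, and 1 pathway gene was higher and 9 to 15 lower, with less power from 3 libraries, where the lone library of a condition is assumed to vary like the others. Same-numbered libraries deviated with a correlation of 0.04 over transcripts, so the numbers are taken as names, and with a replicate block 716 transcripts were higher and 1419 lower. Of 226 alternative fits of the 20 called pathway genes, 176 kept the call and 50 lost it. Only sites of at least 1 RPM left LARP1 sites on 0 of the 8 genes after PP242, and on 1 and 4 pathway genes in growing and PP242-treated cells.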
